A study of Mus musculus and Miniopterus natalensis with 16 samples.

Results

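The autopod is the hand or foot plate at the end of the limb bud, in which digit cartilage condenses between bands of interdigital tissue. In most mammals the interdigital tissue dies back and frees the digits. In bats the forelimb (FL) keeps it as wing membrane while the hindlimb (HL) becomes a small foot with free digits. Cartilage forms as mesenchymal cells condense and then lay down a matrix of collagens and aggrecan, a proteoglycan that is held on hyaluronan by link protein. The comparison described here follows the HL autopod of *M. natalensis*, the Natal long-fingered bat, from *Carollia* stage (CS) 16 to CS17.

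The HL was measured on 8 of the 16 arrays of the series, 4 at CS16 and 4 at CS17, and each of these arrays held RNA of the left and right footplates of 1 embryo cut off at the ankle. The embryos of the stages were different animals, all untreated, with no genotype given, and stage is the sole label that separates the groups. The other 8 arrays held the FL of the same embryos. On every array the bat RNA was labelled with Cy3 and set against Cy5-labelled RNA of E13.5 mouse FL autopods pooled from 24 embryos, on a spotted array of mouse oligonucleotides. Biological repeats 1 to 4 of both stages and limbs were amplified and labelled as 4 batches, and the mouse pool was amplified anew for each. The comparison of stages asks which transcripts changed in the foot, and the mouse pool serves only as a common denominator for it.

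The deposited log ratios carry no stated base, direction or centring. Read as log2 with the sign turned, they held a matching feature for 33 of the 35 probes in the study's list of its top differences between limbs and between bat and mouse, against 4 probes with the sign as deposited. Values are therefore given as log2 of bat over mouse. This direction is likely rather than certain, since the sample labels describe the values as bat relative to the mouse pool, and by that wording higher and lower would change places throughout. A value was present for 13988 of 37440 features (37.4%), and after identical rows were counted once 12656 features were tested. The files identify features by number. A gene name could be given to 29 of them, by the folds of the same list, and is as likely as that match. Markers of limb identity and of cartilage, muscle, blood or skin therefore could not be read as lists, and the labelled tissue could not be checked against its defining genes. In whole autopods, fewer cells of a type and less RNA per cell cannot be told apart.

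The HL arrays were alike across features, with correlations between pairs of arrays from 0.862 to 0.958. CS17 HL replicate 4 stood farthest from its group, with a mean correlation of 0.908 with the other CS17 HL arrays, where the other 3 had 0.923 to 0.931 and the CS16 HL arrays 0.947 to 0.954. The spread of the ratios also differed between arrays. Its SD was 0.627 on CS17 HL replicate 1 and 0.712 on replicate 4, against 0.751 and 0.796 on replicates 2 and 3 and 0.740 to 0.816 on the CS16 HL arrays. The ratios on replicates 1 and 4 thus covered a narrower range, and results that move with these arrays are given with and without them.

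Few features passed an adjusted test between CS16 and CS17 in the HL, which does not show that the others were unchanged. With limma and an adjusted p under 0.05, from here on "called", 36 of 12656 features (0.284%) differed between the stages, 11 higher (0.0869%) and 25 lower (0.198%) at CS17. The sizes were modest, from 1.43-fold to 2.52-fold. The 4 arrays of one stage lay wholly above those of the other for all 36, as they did for 1276 features (10.1%) of the whole table, 488 higher (3.86%) and 788 lower (6.23%) at CS17. At an unadjusted p under 0.05 there were 1923 features (15.2%), 594 higher (4.69%) and 1329 lower (10.5%), beside 633 expected by chance. The median size of the stage difference over all features was 0.12 on the log2 scale, of the same order as the median SE of 0.13. Only 2 features (0.0158%) passed a fold above 1.5 with an adjusted p under 0.01 by limma, and both were higher at CS17. The study's methods give the same cut-offs for comparisons within the bat. There they apply to q values of another package, DEDS, after a variance filter, so counts under them are not like for like.

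The count of calls depended on how the spread was estimated. Without the labelling batch as a replicate block 358 features were called, 89 higher and 269 lower. The median SD of the batch means was 0.03, against 0.08 without any batch effect, and the authors corrected batch artefacts. If the deposited values include that step, the fit without the block overstates its degrees of freedom and its calls. From the 8 HL arrays alone with the block 0 features were called by limma, with 1644 at an unadjusted p under 0.05. The stage differences themselves are the same numbers with the block, without it and from the HL arrays alone, so their direction could not change.

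The named gene with the clearest change was *Hapln1*, which encodes the link protein that fastens aggrecan to hyaluronan in cartilage matrix. Its log2 ratio was -0.11, -0.12, 0.04 and 0.07 on the CS16 HL arrays, and 1.02, 1.10, 0.93 and 0.68 on those of CS17. The CS17 arrays thus all lay above the CS16 arrays, with no overlap between the stages. Such a ratio does not give the level in bat against mouse, because probe mismatch, dye and unknown centring also enter it. The rise was 0.96 ± 0.12 (SE, n = 4 per stage) on the log2 scale, or 1.95-fold, with an adjusted p of 0.00661 from limma. Within the 4 labelling batches it was 1.13, 1.22, 0.89 and 0.61. The call held in 7 of the 8 fits that left out 1 HL array, and without CS16 HL replicate 1 the adjusted p was 0.0593. The FL of the same embryos rose as well, by 1.40 (adjusted p = 1.13e-04). The study listed *Hapln1* for a higher CS17 FL than CS17 HL and mouse, a choice that favours a rise in the FL.

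The second cartilage matrix gene with a name showed no called change in the foot. *Matn1* encodes matrilin-1, which links collagen fibrils and proteoglycans in cartilage. In the HL its log2 ratio was -0.25, -0.24, -0.18 and -0.45 at CS16 and -0.01, -0.14, -0.43 and -0.46 at CS17. These ranges overlapped throughout, and the difference was 0.02 with a 95% interval from -0.40 to 0.45. In the FL the same feature went from between -1.20 and -0.35 at CS16 to between 0.20 and 0.99 at CS17, a difference of 1.22 with an adjusted p of 0.0609. The study listed *Matn1* for a difference between FL and HL at CS17, a choice that favours unlike stage differences in the limbs.

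**Figure D1:**
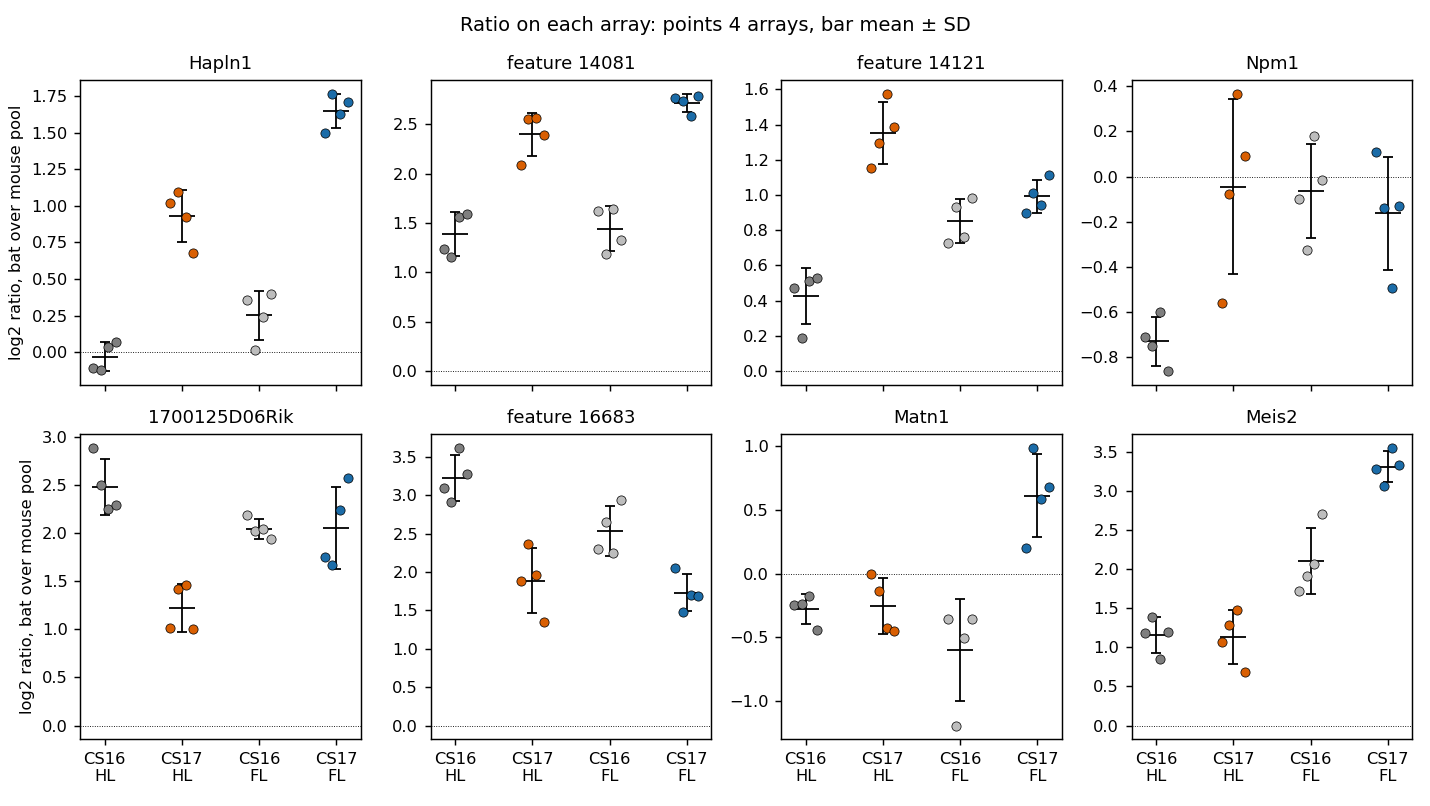
Log2 ratio of bat over mouse pool on each of the 4 arrays per stage and limb for 8 features, with the mean and SD as bars and 0 dotted. *Hapln1*, features 14081 and 14121 and *Npm1* had all CS17 HL arrays above those of CS16, 1700125D06Rik and feature 16683 had them below, and *Matn1* and *Meis2* overlapped between the stages in the HL.

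Features 14081 and 14121, which are known by number only, rose by a similar amount. Feature 14081 had log2 ratios of 1.24, 1.16, 1.56 and 1.59 at CS16 and 2.09, 2.55, 2.56 and 2.39 at CS17, the largest rise among the called features (1.01 ± 0.14, adjusted p = 0.0122). Its ratio was already positive at CS16 and rose farther in both limbs, with an FL difference of 1.27 (adjusted p = 0.00106). Its adjusted p passed 0.05 without CS16 HL replicate 1 or replicate 3, with a highest value of 0.0624.

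Feature 14121 had log2 ratios of 0.47, 0.19, 0.51 and 0.53 at CS16 and 1.15, 1.30, 1.58 and 1.39 at CS17. The stages were well apart, by 0.93 ± 0.11, and this was the smallest adjusted p of the HL comparison (0.00413), for which the feature was picked after its values were seen. It was the only feature called in all 8 fits with 1 HL array left out, with adjusted p from 0.00787 to 0.0302. In the FL its CS16 arrays ran from 0.73 to 0.98 and its CS17 arrays from 0.90 to 1.11, which overlap, and the FL difference was 0.14 (adjusted p = 0.857). At CS16 the HL arrays were below all FL arrays of that stage for this feature and at CS17 above all of them. The test of HL against FL stage difference gave 0.79 with a 95% interval from 0.47 to 1.11 and an adjusted p of 0.336, so that the limbs were not shown to differ.

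The other 8 features that rose did so by 0.52 to 0.81, and none of them has a gene name. Over all 11 the median rise was 0.61, and 10 of them had a mean ratio above 0 at CS17, where 6 had one at CS16.

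Among the 25 features that fell, 1700125D06Rik had the only gene name, that of a transcript known by its cDNA clone alone and to which no role is given here. Its log2 ratio was 2.89, 2.50, 2.25 and 2.29 at CS16 and 1.01, 1.41, 1.46 and 1.01 at CS17, so the highest array of CS17 lay well under the lowest of CS16. It fell by 1.26 on the log2 scale, or 2.39-fold, with an SE of 0.20 and an adjusted p of 0.0248. In the FL its stages overlapped, with CS16 arrays from 1.94 to 2.19, CS17 arrays from 1.67 to 2.57 and a difference of 0.01 (95% interval -0.42 to 0.44). This gene too was listed for a difference between FL and HL at CS17, a choice that favours unlike stage differences in the limbs.

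The largest fall was that of feature 16683. Its log2 ratio was 3.09, 2.92, 3.62 and 3.27 at CS16 and 1.88, 2.36, 1.97 and 1.35 at CS17. It fell by 1.34, or 2.52-fold, with an SE of 0.22 and an adjusted p of 0.0248. The FL arrays of the stages did not overlap either, with a difference of -0.80 (adjusted p = 0.373). For both features the HL fall kept its call in only 3 of the 8 fits with 1 array left out.

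The features that fell had one level in common. All 25 had a mean ratio above 0 in the CS16 HL, 17 of them above 1, against 5479 (43.3%) and 1554 (12.3%) of all 12656 features. Their median ratio was 1.37 at CS16 and 0.67 at CS17, and all 25 means were nearer to 0 at CS17, as 8065 (63.7%) of all features were. They were thus features with a positive ratio to the mouse pool in the CS16 foot and a ratio nearer to 0 in the CS17 foot. Part of this is built in, because a feature can be called lower more readily from a high CS16 value.

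To look at level without the HL values, features were sorted by their mean ratio on the 8 FL arrays. The 1394 features between 0.5 and 1, the 1188 between 1 and 2 and the 201 above 2 had median HL stage differences of -0.19, -0.18 and -0.17. In the 7373 features between -0.5 and 0.5 the median was -0.01, and in the 2105 and 395 features below that range it was 0.06. The shift downward among features with high ratios was not shared by all CS17 HL arrays. On replicate 1 the medians of the upper 3 bins against the CS16 HL mean were -0.24, -0.33 and -0.39, and on replicate 4 they were -0.37, -0.38 and -0.33. On replicates 2 and 3 they lay between -0.07 and 0.09. These are the arrays with the wider spread of ratios, and the arrays with the shift are those with the narrower one. At lower ratios replicates 1 and 4 differed. In the bins below -0.5 the medians were 0.20 and 0.19 on replicate 1 and 0.02 and -0.02 on replicate 4. On replicates 2 and 3 the medians of those bins lay between -0.01 and 0.04. Between -0.5 and 0.5 replicate 1 had a median of 0.04 and replicate 4 one of -0.11.

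**Figure D2:**
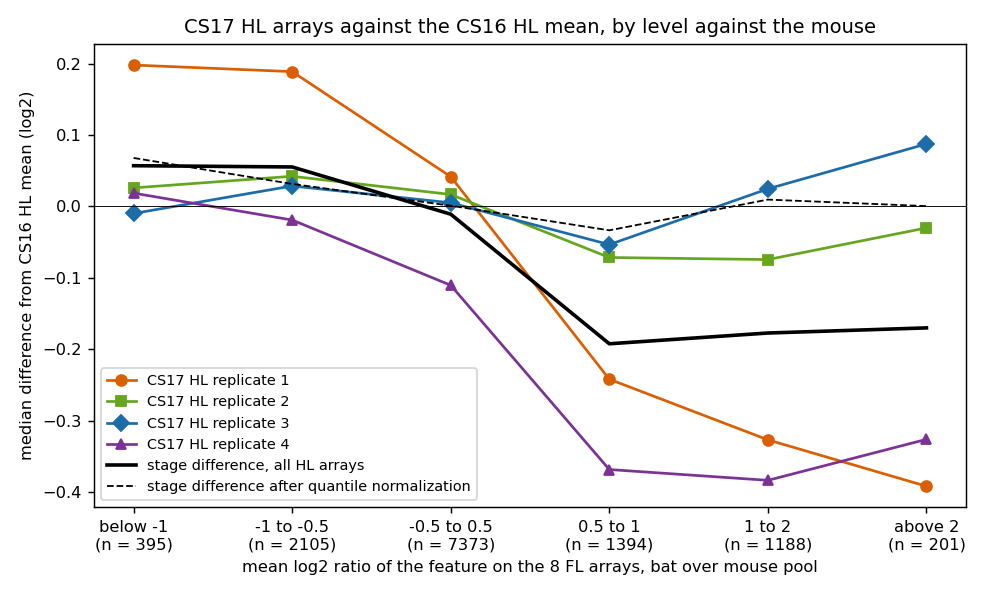
Median log2 difference of each CS17 HL array from the CS16 HL mean (coloured lines) and median HL stage difference (black; dashed after quantile normalization), for features sorted by their mean log2 ratio on the FL arrays. Replicates 1 and 4 drop to between -0.24 and -0.39 above a ratio of 0.5, while replicates 2 and 3 stay between -0.07 and 0.09.

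The number of called falls depended on the scaling of the arrays. Of the 25 falls, 7, 11 and 3 lay in the upper 3 bins, which is 0.502%, 0.926% and 1.49% of the features there, against 4 features (0.0543%) in the middle bin. With quantile normalization, which gives every array the same spread, the medians of the upper bins were -0.03, 0.01 and 0.00, and the calls split into 27 higher and 15 lower, with 13 of the 25 falls and 10 of the 11 rises still called. With every array centred and set to a common spread there were 23 higher and 16 lower calls, with 9 falls and 9 rises still called. Among called features the excess of falls over rises thus turned under both scalings, while all 36 features kept their own direction. At an unadjusted p under 0.05 by limma it did not turn. Quantile normalization gave 880 lower and 842 higher, and a common spread gave 1081 lower and 689 higher. Under both scalings together 18 of the 36 were called, 9 of each direction, and *Hapln1*, 1700125D06Rik, feature 14081 and feature 14121 were among them. Feature 16683 was called under quantile normalization but not with a common spread, where its fall was 0.96.

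Single HL arrays of both stages decided the count of falls. Without CS17 HL replicate 1, and likewise without replicate 4, 0 features were called lower by limma, and 3 and 7 were called higher. At an unadjusted p under 0.05, these fits had 1258 and 749 features lower and 400 and 746 higher. Without CS17 HL replicate 2 or replicate 3 the calls rose to 69 and 60, of which 54 and 47 were lower. Without CS16 HL replicate 1 there was 1 call and without replicate 3 there were 2, again with 0 lower, although these arrays have a wider spread. Without CS16 HL replicate 2 there were 7 calls, 4 of them lower, and without replicate 4 there were 11, 5 of them lower. The excess of lower features at an unadjusted p was down to 749 lower and 746 higher without CS17 HL replicate 4, and lower features outnumbered higher ones in each of the other fits. The rises of *Hapln1*, feature 14081 and feature 14121 kept a size of at least 0.84 in every such fit.

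**Figure D3:**
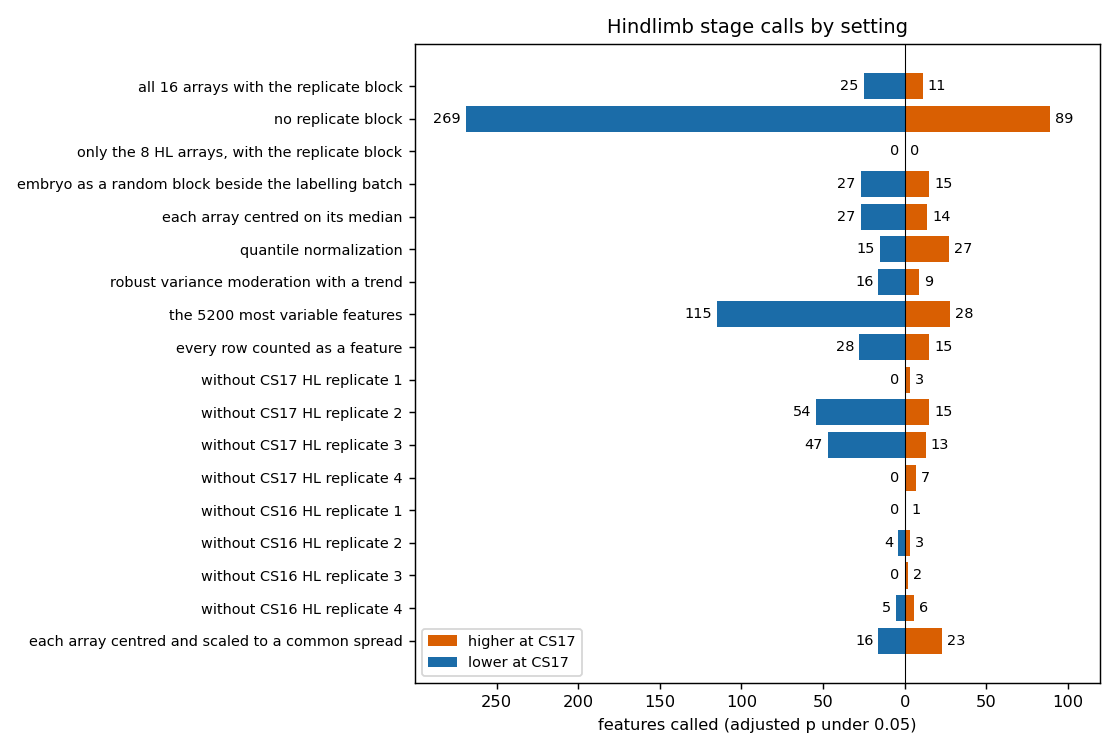
Number of features called higher (right) and lower (left) at CS17 in the HL under each setting. The split of 11 higher and 25 lower becomes 27 and 15 with quantile normalization and 23 and 16 with a common spread, and 0 lower calls are left without CS17 HL replicate 1 or 4 or without CS16 HL replicate 1 or 3.

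The FL of the same embryos gives the other limb at the same stages, and both comparisons share embryos and amplifications of the mouse pool. In the FL 2 features (0.0158%) were called between the stages, *Hapln1* and feature 14081, and 782 (6.18%) had an unadjusted p under 0.05. The 11 features that rose in the HL had FL differences from 0.10 to 1.40 with a median of 0.27. The 25 that fell had FL differences from -0.82 to 0.11 with a median of -0.20. For 33 of the 36 the FL difference was the smaller in size, which the choice of features by their HL values favours. The difference between the limbs' stage changes was called by limma at 0 of 12656 features, with 994 (7.85%) at an unadjusted p under 0.05 and a lowest adjusted p of 0.336. The 2 limbs moved wholly apart in opposite directions at 25 features (0.198%) and in the same direction at 84 (0.664%).

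**Figure D4:**
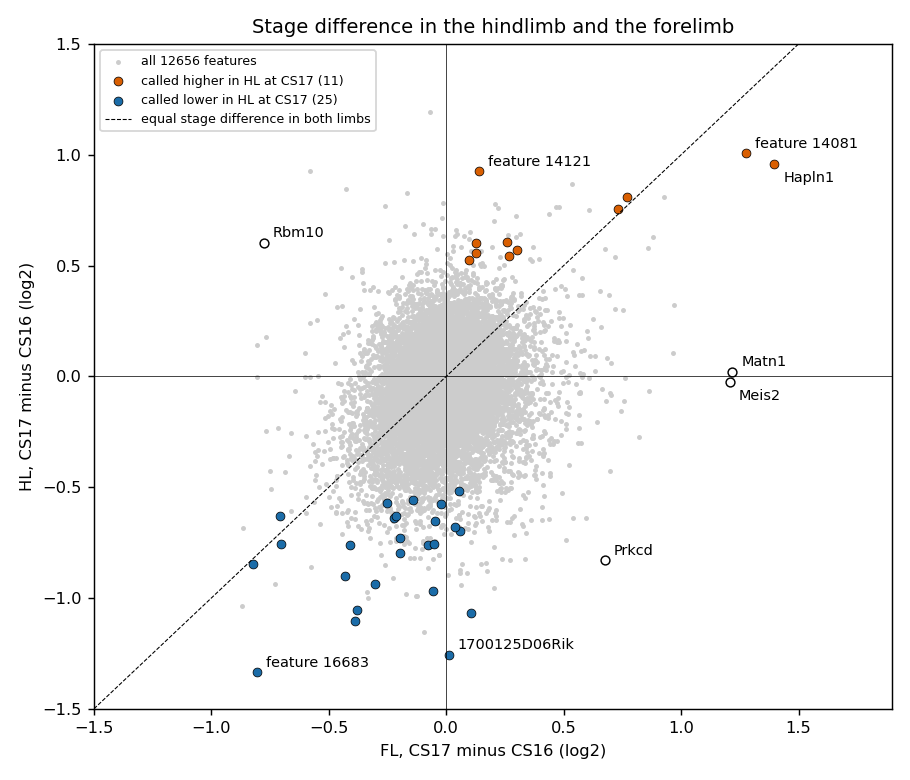
HL stage difference against FL stage difference, both CS17 minus CS16 in log2, for 12656 features, with the 11 features called higher in the HL in orange, the 25 called lower in blue and 4 further named features as open circles. *Hapln1* and feature 14081 are high in both limbs, 1700125D06Rik is low in the HL with an FL difference of 0.01, and *Meis2* and *Matn1* lie near 0 in the HL.

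The genes named by the study's list were chosen there on these samples, most for a difference between FL and HL and some (*Kpna3*, BC049702, *Lnp*, *Hist1h2ao* and *Ubr2*) for a difference between CS17 FL and mouse alone. Their direction in either limb is therefore no independent evidence, and the limb difference that identified them is given without a test. Of the 30 features matched, the list's 1 unnamed probe included, 1 was called higher and 1 lower in the HL. At an unadjusted p under 0.05 there were 6 higher and 14 lower, beside 4.69% and 10.5% of all features. The arrays of the stages did not overlap for 3 higher and 9 lower, beside 3.86% and 6.23% of all features, and the choice of the list by CS17 or CS16 HL values bears on these shares. The median HL stage difference was -0.38 over these 30 features and -0.02 over all features, and their median in the FL was 0.22.

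Among the patterning genes that could be named, *Meis2*, *Hoxd11* and *Lnp*, none was called in the footplate. Whether called features without a gene name include others is unknown. *Meis2* encodes a homeodomain protein that marks the proximal limb bud, and its probe lies in the untranslated part of the transcript's start. It had HL log2 ratios of 1.19, 1.39, 0.84 and 1.20 at CS16 and 1.07, 1.29, 1.48 and 0.68 at CS17. The stages overlapped, with a difference of -0.03 (95% interval -0.47 to 0.42), while the FL difference was 1.21 (adjusted p = 0.0678). *Hoxd11*, a homeobox gene of the posterior limb, went from between -0.64 and -0.07 to between -0.85 and -0.07 in the HL, a difference of -0.14 (95% interval -0.58 to 0.30). *Lnp*, which lies beside the *Hoxd* cluster and encodes a protein of the endoplasmic reticulum, had a difference of -0.29 (95% interval -0.71 to 0.13). Its match to a feature is one of the less secure, since 7 features came within a tolerance of 0.1. Changes inside these unadjusted intervals remain possible, and none of these genes was shown to be unchanged.

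None of the named genes of cell death and signalling passed the adjusted test in the HL. *Hrk* encodes a BH3-only protein that promotes apoptosis by binding BCL2 relatives. Its HL arrays read 0.69, 0.82, 0.41 and 0.38 at CS16 and 0.13, -0.08, -0.03 and -0.07 at CS17, with no overlap, a difference of -0.59 ± 0.15 and an adjusted p of 0.103. *Prkcd*, the gene of protein kinase C delta, read 1.95, 1.62, 2.19 and 1.96 at CS16 and 1.17, 0.85, 1.04 and 1.34 at CS17, also with no overlap (-0.83 ± 0.20, adjusted p = 0.0974). The FL differences of these genes had the other sign, 0.41 for *Hrk* and 0.68 for *Prkcd*. The study listed *Hrk* at CS17 and *Prkcd* at CS16 for a difference between FL and HL on these arrays, a choice that favours opposite signs. *Dab2*, the gene of a clathrin adaptor used in endocytosis, had CS16 arrays between 0.15 and 0.28 and CS17 arrays between -0.50 and -0.17 (-0.53 ± 0.14, adjusted p = 0.118), and its match is less secure, with 3 features within a tolerance of 0.1. For *Taok3*, a kinase gene with 4 features within that tolerance, the HL difference was -0.07 and the FL difference 0.70.

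Genes of the nucleus had mixed values. *Npm1* encodes nucleophosmin, a nucleolar protein of ribosome assembly that has many near-identical copies in mammalian genomes, so its probe may read more than one. It read -0.71, -0.75, -0.60 and -0.86 at CS16 and -0.56, -0.08, 0.37 and 0.09 at CS17, all higher at CS17, with a difference of 0.69 ± 0.17 and an adjusted p of 0.106. *Rbm10*, the gene of a splicing regulator, had an HL difference of 0.60 and an FL difference of -0.78, with overlapping HL arrays (adjusted p = 0.268). Its listing for a difference between FL and HL at CS17 favours these opposite signs. *Hist1h2ao*, one of a family of near-identical histone H2A genes, had an HL difference of 0.49 (adjusted p = 0.214). *Kpna3*, an importin gene for entry into the nucleus, and *Zfp800*, a zinc finger gene, had differences of -0.82 and -0.72 whose arrays overlapped. On *Kpna3* the differences within the labelling batches ran from -1.65 to 0.31.

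**Figure D5:**
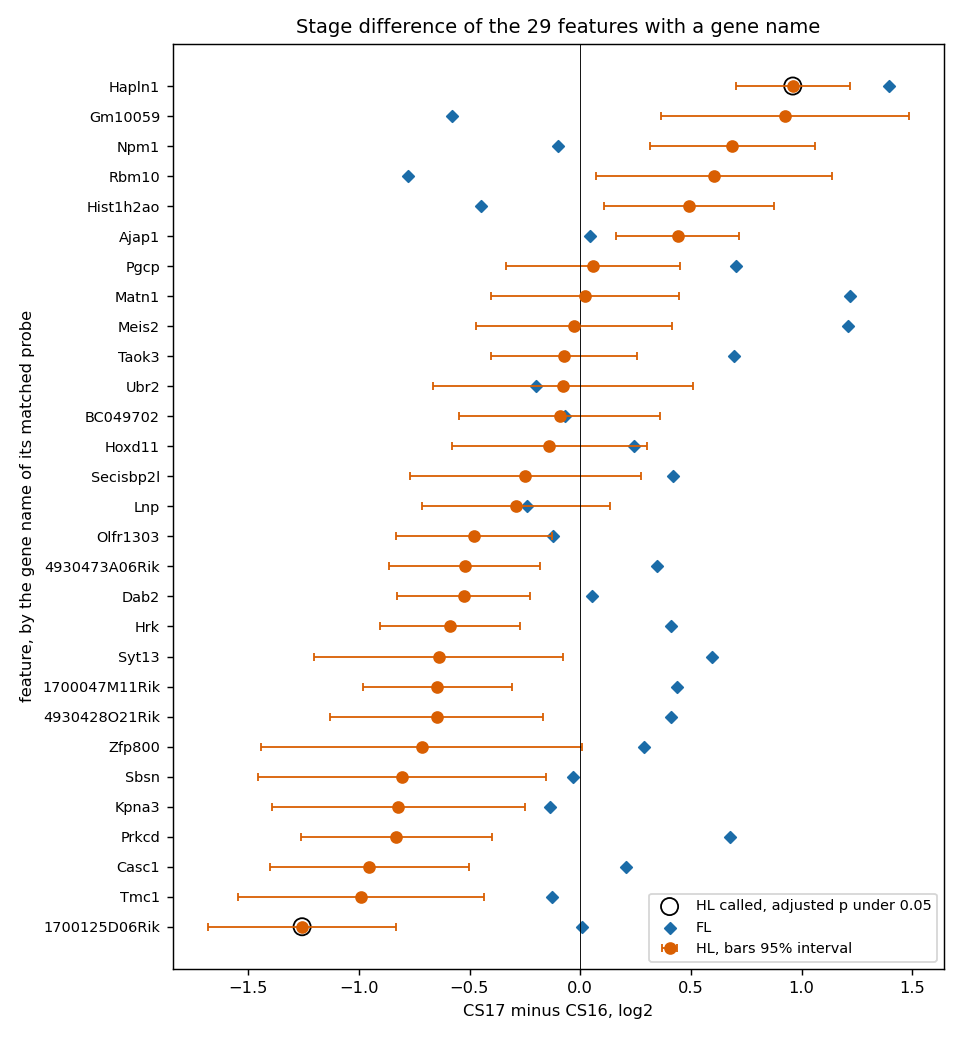
Stage difference, CS17 minus CS16 in log2, of the 29 features with a gene name, with the HL as circles and its unadjusted 95% interval as bars and the FL as diamonds. *Hapln1* and 1700125D06Rik, ringed, were called in the HL, and *Meis2*, *Matn1* and *Hoxd11* lie near 0 in the HL.

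The named genes of the cell surface, vesicles and epidermis did not pass the adjusted test either, nor did *Casc1*, to which no role is given here. *Ajap1*, the gene of a protein at adherens junctions, read 0.79, 0.87, 0.56 and 0.52 at CS16 and 0.90, 1.17, 1.21 and 1.21 at CS17, with no overlap, a difference of 0.44 ± 0.13 and an adjusted p of 0.149. It was called with quantile normalization and with a common spread, with a lowest adjusted p of 0.0342. *Tmc1*, known in inner ear hair cells as part of the mechanotransduction channel, read 0.76, 1.32, 0.50 and 0.34 at CS16 and 0.21, -0.80, -0.17 and -0.28 at CS17 (-0.99 ± 0.26, adjusted p = 0.114). *Sbsn*, a gene of the differentiating epidermis, ranged from 0.35 to 2.06 at CS16 and from -0.04 to 0.46 at CS17, where CS16 replicates 2 and 4 stood above all other HL arrays (-0.80 ± 0.30, adjusted p = 0.231). *Syt13*, of the synaptotagmin family of membrane trafficking proteins, had overlapping arrays and a difference of -0.64 (adjusted p = 0.266). *Casc1* read 2.48, 2.74, 2.82 and 2.41 at CS16 and 1.78, 2.14, 1.39 and 1.31 at CS17, with no overlap (-0.95 ± 0.21, adjusted p = 0.0818).

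The remaining named features also missed the adjusted threshold. Gm10059 had the highest difference among them, 0.93 ± 0.26, but its CS16 arrays from -2.40 to -1.58 overlapped those of CS17 from -1.68 to -0.57. 4930473A06Rik, 1700047M11Rik, 4930428O21Rik and *Olfr1303* had differences from -0.65 to -0.48, and the matches of 4930473A06Rik and *Olfr1303*, an olfactory receptor gene, are less secure, with 2 features each within a tolerance of 0.1. *Secisbp2l*, BC049702, *Ubr2*, the gene of a ubiquitin ligase, and *Pgcp*, the gene of a peptidase, had differences from -0.25 to 0.06, each with an interval that included 0. The differences of *Meis2*, *Taok3* and BC049702 changed sign with quantile normalization and with a common spread.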

How the data were processed

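Autopod RNA was hybridised in dual colour, bat against mouse pool, on 16 mouse arrays, of which the 8 HL arrays are described. By the methods, the authors processed the scans in R with background correction, normalisation, removal of poor features, imputation, correction of batch artefacts and a variance filter. Which steps the table includes is not stated. The deposited values are log2 ratios, 1 per feature and array, as far as the match of base shows. Read as natural log, 8 of the 35 listed probes had a matching feature with the sign turned, and read as log10, 13. A match needed all 3 listed folds (FL over HL at each stage, CS17 FL over mouse) within 0.05, and 30 probes had exactly 1 feature. Of these, 25 also had exactly 1 within 0.1 and 5 had more. Array medians after turning lay between -0.17 and -0.05 for CS17 HL and between -0.13 and -0.07 for CS16 HL, and centring is unknown. No scanner files were used, so signal over background gives no limit, and precision is set by the number of arrays.

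Stage differences were fitted with limma 3.58.1 in R 4.3.3 (lmFit, eBayes) over all 16 arrays, with a mean per stage and limb and the labelling batch as block (9 residual and 5.6 prior degrees of freedom), and Benjamini-Hochberg adjustment over 12656 features. The labels tie repeat numbers to batches. Deviations of same-numbered HL arrays correlated at -0.37 to -0.24, and the median SD of the batch means was 0.03 against 0.08 without any batch effect. Whether batch effects had been removed before deposit was not tested. If they had, a fit without the block counts more degrees of freedom than the values hold. The spread of the mouse reference, a single pool, is not part of any error, and dye and probe mismatch are shared by both stages.

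Members, lists and tests were chosen with earlier results of these data known. The rule for named genes asked for called features with a symbol, list members with an adjusted p under 0.05 or an unadjusted p under 0.01 and, without symbols, the 2 largest rises and falls by number. All matched features are described beyond it. The lists of other genes could not be used. Alternatives were no replicate block, only the HL arrays, embryo as a random block, arrays centred, quantile normalization, robust variance moderation, the 5200 most variable features, every row as a feature, repeated values left out, other thresholds and each HL array left out. Setting all arrays to a common spread was added after the data were seen. The code was tested on simulated data. Figures were drawn with matplotlib 3.10.9 under Python 3.11.15, with pandas 2.3.3 and numpy 2.4.6 for tables.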

Additional observations from a re-analysis of the deposited data

Results flagged for a closer look

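1700047M11Rik had stages that did not overlap in either limb, with CS17 below CS16 in the HL and above it in the FL. Its HL log2 ratios were 0.81 to 1.25 at CS16 and 0.12 to 0.79 at CS17, its FL ratios 0.61 to 0.75 and 0.93 to 1.40, and its HL stage difference lay 1.08 below that of the FL (HL minus FL -1.08). The limb difference identified this feature, so no test of it is given.

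In 70 groups of 4 arrays checked, 2 held an array far from the other 3, where chance flags about 1 in 20 groups. *Ajap1* read 0.90 on CS17 HL replicate 1, under 1.17 to 1.21 on the others. Feature 14121 read 0.19 on CS16 HL replicate 2, under 0.47 to 0.53 on the others.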

How the results depend on the processing

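The counts of calls between CS16 and CS17 HL (36, 11 higher and 25 lower, and 2 past the stricter thresholds) moved under most settings. Without the replicate block, where degrees of freedom may be overstated, they were 358, 89, 269 and 35, and with only the 8 HL arrays all 4 were 0. Quantile normalization gave 27 higher, 15 lower and 6 past the stricter thresholds. A common spread gave 23, 16 and 5. Robust variance moderation gave 16 lower and 0 past the stricter thresholds. The 5200 most variable features gave 143 calls, 28 higher and 115 lower, with 38 past the stricter thresholds, 731 features without overlap in place of 1276, and 15 in place of 0 for HL against FL stage difference, where variance also selects on the effect. An adjusted p under 0.01 gave 2 calls, 2 higher and 0 lower, and one under 0.1 gave 149, 30 and 119. Leaving out single HL arrays gave 1 to 69 calls, 1 to 15 higher, 0 to 54 lower, 0 to 8 past the stricter thresholds and 1535 to 2177 features without overlap, which fewer arrays make easier. The HL against FL count was 0 in each of these fits.

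Of the differences of single features under alternatives, 511 kept direction and side of the threshold, 19 lost the call, 20 gained it and 26 changed sign, all 26 on features whose difference was not called. Direction could change only where arrays were centred, rescaled or left out. The other settings altered the spread or the set of features and left each difference as it was. With quantile normalization and with a common spread, *Meis2* was 0.17 and 0.14, *Taok3* 0.076 and 0.028, and BC049702 0.077 and 0.13. Without single HL arrays the range was -0.19 to 0.20 for *Meis2*, -0.19 to 0.056 for *Taok3*, -0.29 to 0.19 for BC049702, -0.31 to 0.039 for *Hoxd11*, -0.079 to 0.10 for *Matn1*, -0.074 to 0.19 for *Pgcp*, -0.54 to 0.071 for *Secisbp2l* and -0.39 to 0.20 for *Ubr2*. The cause was not tested. Lower calls were 0 without CS17 HL replicate 1 or 4, the arrays with a narrow spread, and also without CS16 HL replicate 1 or 3, which have a wide one, and the part of the spread in the split of calls was not tested.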
